A study of Mus musculus with 16 samples.

Results

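Mucins are the gel-forming and membrane-bound glycoproteins of airway mucus, and most of their mass is sugar. The sugar chains start when a polypeptide GalNAc-transferase of the Galnt family links N-acetylgalactosamine to serine or threonine. C1galt1, with its chaperone C1galt1c1, then adds galactose to make the core 1 structure, and Gcnt enzymes add a branch to make core 2. Enzymes of the B3gnt, B3galt and B4galt families lengthen the chains, and St3gal, St6gal and St6galnac sialyltransferases, Fut fucosyltransferases and Chst sulfotransferases cap or decorate them. Many of these families also build the glycans of other proteins, lipids and proteoglycans.

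The genes described here are the glycosyltransferases and sulfotransferases of those families. They were chosen among the genes of the arrays by symbol. The rule takes symbols that begin with Galnt, C1galt1, Gcnt, B3gnt, B3galt, B4galt, St3gal or St6gal. It also takes Fut or Chst followed by a digit, except Chst1, which was left out by name. The rule found 74 genes, measured by 114 probes, and 60 of them were among the 18561 genes and transcripts that could be tested. By role, 17 start chains, 2 make core 1, 3 branch, 8 add N-acetylglucosamine, 12 add galactose, 13 add sialic acid, 8 add fucose and 11 add sulfate. The label of mucin glycans holds for part of the set only. Chst3, Chst7, Chst11, Chst12, Chst14 and Chst15 act on chondroitin or dermatan sulfate, B4galt7 and B3galt6 build the linker of proteoglycans, Fut8 puts the core fucose on N-glycans, and St3gal5 makes a ganglioside.

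RNA came from airway epithelium of mice of the FvB strain, aged 6 to 8 weeks at sensitization, which were wild type (wt) or knockout (ko) for beta6, the epithelial integrin subunit encoded by Itgb6. Mice of each genotype received either saline throughout or ovalbumin (OVA), the egg white allergen of many mouse models of asthma. OVA was injected into the peritoneum at 20 ug on days 1, 4 and 7, then given into the nose at 10 ug once a week for 9 weeks. Tissue was taken 24 h after the last dose. The 4 groups are therefore wt after saline (wt_saline), wt after OVA (wt_OVA), ko after saline (ko_saline) and ko after OVA (ko_OVA), each with 4 one-colour arrays. All 4 groups share strain, age and dosing schedule. The labels do not say that the arrays of a group came from separate mice, so p-values measure the spread between these samples, which may be technical.

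Values below are log2 of the signal divided by the 75th percentile of its array, so a difference of 1 is a doubling, and a common floor lies at -3.32. Itgb6 lay between -0.93 and -0.39 in wt_saline and between -1.02 and -0.73 in ko_saline, which overlap, and between -0.64 and -0.56 in wt_OVA and between -1.71 and -0.96 in ko_OVA, which do not. Its ko minus wt difference was -0.11 ± 0.16 (SE) after saline (limma, adjusted p = 0.971) and -0.58 ± 0.16 after OVA (adjusted p = 0.547). Whether its probe lies in the deleted part is not given in the sources used here, so genotypes are used as labelled. The 75th percentile ran from 78 to 793 intensity units over the 16 arrays, and the share of probes well above background from 43.3% to 74.4%. As a check of the tissue, the 9 measured club cell markers averaged 6.75 to 8.43 per array and the 10 ciliated cell markers 3.39 to 4.24. Other tissue varied between arrays: the mean of 10 striated muscle markers ran from -2.65 to 1.79 in wt_saline, -2.96 to 4.02 in wt_OVA, -2.69 to 4.72 in ko_saline and -2.95 to -1.54 in ko_OVA, and that of 7 salivary and submucosal gland markers from 1.95 to 2.84, 0.38 to 4.72, 0.41 to 3.03 and 0.02 to 3.69.

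A number of these enzymes rose with OVA. None fell past the threshold, though St6gal1 missed it narrowly and fell past it under some other settings, given with its values below. Over both genotypes, 16 of 60 tested members (26.7%) rose, against 3.72% of all genes tested, and 0 fell, against 2.74% of all genes (limma, mean of the wt and ko OVA minus saline differences, Benjamini-Hochberg adjusted p under 0.05 over all genes). The risers were led by Galnt6 and Chst10, at 2.56-fold and 2.37-fold (the second not past the threshold with normexp background correction), and the other 14 rose by 1.31-fold to 1.79-fold. They were spread over the pathway: 6 of 13 tested chain starters, 0 of 2 core 1 genes, 1 of 2 branching enzymes, 1 of 6 N-acetylglucosamine-adding, 3 of 11 galactose-adding, 2 of 10 sialic acid-adding, 2 of 7 fucose-adding and 1 of 9 sulfate-adding enzymes. All 8 OVA arrays lay above all 8 saline arrays for 7 members, as they did for 0.77% of all genes. The median difference of the tested members was 0.17, beside 0.01 over all genes. In bulk samples, more or fewer cells of a type and more or less RNA per cell cannot be told apart.

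Markers of several cell types differed with OVA as well. Over both genotypes 3.72% of all genes rose and 2.74% fell. Of 10 mucous cell markers 9 rose with OVA over both genotypes, with a median of 1.63. Their mean per array was 2.33 to 2.79 in wt_saline, 4.06 to 5.01 in wt_OVA, 2.09 to 2.36 in ko_saline and 3.51 to 4.97 in ko_OVA. Of 10 ciliated cell markers 6 rose, with a median of 0.38, and their array means were 3.43 to 3.72, 3.9 to 4.24, 3.39 to 3.5 and 3.79 to 4.17 in the same order of groups. Of 9 club cell markers 4 fell, with a median of -0.23, and their array means were 7.21 to 8.43, 6.75 to 7.5, 6.77 to 8.19 and 7.07 to 8.21. Of 11 mast cell markers 9 rose, with a median of 1.07, and their array means were -3.07 to -2.4, -1 to -0.14, 0.62 to 1.05 and 0.79 to 1.55, so they were high in ko_saline already. Mcpt1, a mast cell protease, was at the floor on every wt_saline and ko_saline array. None of the 10 striated muscle markers passed, with a median OVA difference of -1.86 over both genotypes and -3.45 in ko, and none of the 7 gland markers passed, with a median of -0.1 over both. In each of the alveolar epithelium, macrophage and dendritic cell, and endothelium lists 1 marker fell, with medians of -0.43, -0.17 and -0.07. No basal cell, B and plasma cell, T cell, or fibroblast and smooth muscle marker passed, with medians of -0.1, -0.3, -0.03 and -0.52. The part of these cell types in the enzyme differences was not tested.

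**Figure D1:**
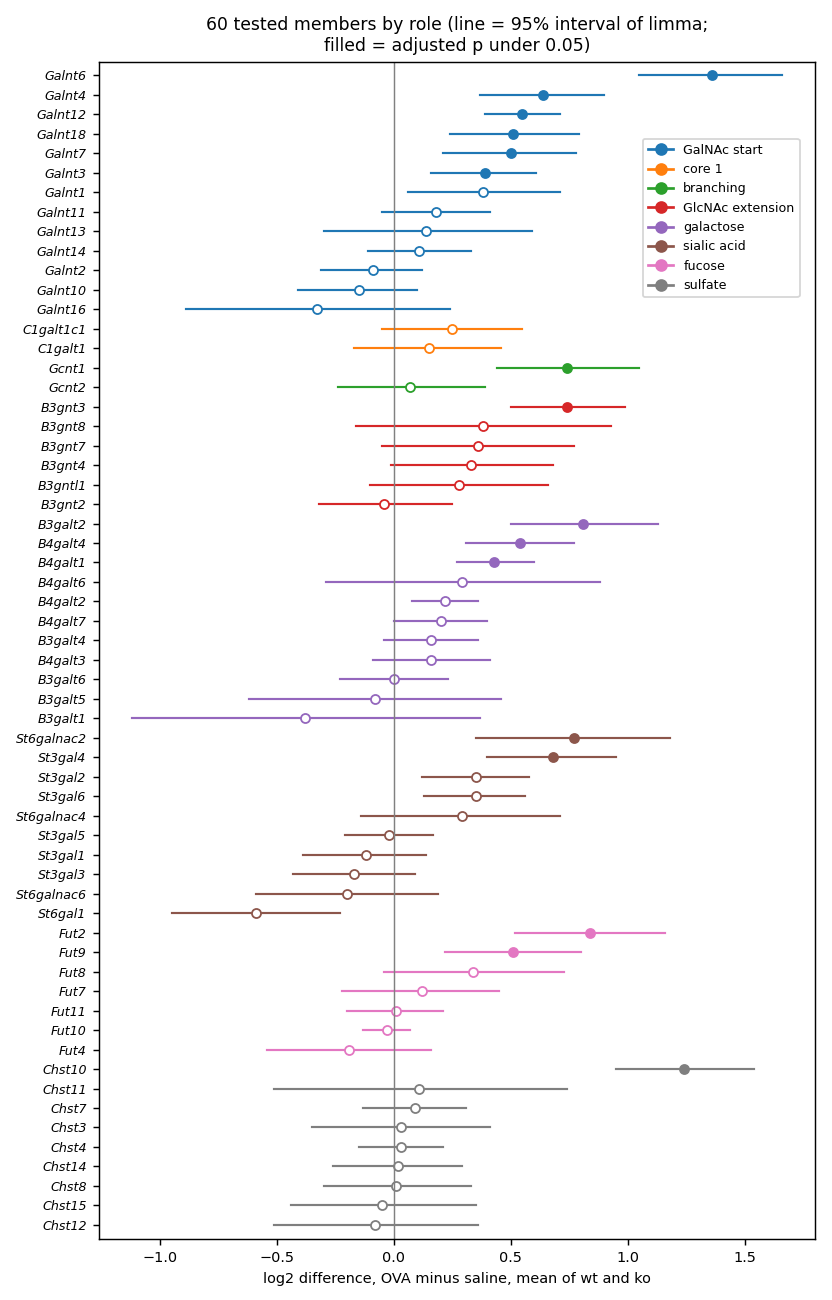
OVA minus saline difference on the log2 scale, averaged over wt and ko, for the 60 tested members ordered by role. Each point is 1 gene with its 95% interval from limma, and filled points passed an adjusted p of 0.05. All 16 filled points lie to the right of 0, led by Galnt6 and Chst10, and the lowest point is St6gal1 at -0.59.

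Promoters of 4 risers are shown because these genes rose with OVA and share a short run of letters. RefSeq promoter entries (GRCm38.p6) were matched for 10 of the 16 risers. The 250 bases before each start were searched on both strands for ACGTG, letters that lie within the E-box CACGTG. The letters occurred for 4 of the 10 genes, for 9 of 37 other tested members with an entry, and for 18.5% of 27025 genes. A gene counted if any of its windows held them. Galnt6 has a second window, chr15:100720478-100720727 on the minus strand, without the letters, which is not shown. The windows below run 5′ to 3′ on the strand of the gene, with matches on either strand in capitals. They are chr15:100729377-100729626 on the minus strand for Galnt6, chr1:38898161-38898410 on the minus strand for Chst10, chr8:71701801-71702050 on the minus strand for B3gnt3 and chr1:143640447-143640696 on the plus strand for B3galt2.
Galnt6: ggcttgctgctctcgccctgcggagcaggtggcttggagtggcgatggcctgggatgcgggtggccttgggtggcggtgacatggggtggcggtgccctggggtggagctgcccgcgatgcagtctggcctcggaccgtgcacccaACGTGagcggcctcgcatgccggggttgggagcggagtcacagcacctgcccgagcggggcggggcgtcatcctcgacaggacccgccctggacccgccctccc
Chst10: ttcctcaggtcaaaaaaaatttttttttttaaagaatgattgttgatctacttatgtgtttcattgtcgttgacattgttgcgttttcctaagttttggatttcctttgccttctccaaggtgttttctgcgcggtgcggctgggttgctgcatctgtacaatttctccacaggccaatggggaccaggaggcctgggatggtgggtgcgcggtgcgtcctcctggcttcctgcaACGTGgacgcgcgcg
B3gnt3: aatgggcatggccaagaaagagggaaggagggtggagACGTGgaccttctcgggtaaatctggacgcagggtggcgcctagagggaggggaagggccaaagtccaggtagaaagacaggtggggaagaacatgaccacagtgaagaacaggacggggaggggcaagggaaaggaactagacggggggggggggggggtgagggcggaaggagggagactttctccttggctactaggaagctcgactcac
B3galt2: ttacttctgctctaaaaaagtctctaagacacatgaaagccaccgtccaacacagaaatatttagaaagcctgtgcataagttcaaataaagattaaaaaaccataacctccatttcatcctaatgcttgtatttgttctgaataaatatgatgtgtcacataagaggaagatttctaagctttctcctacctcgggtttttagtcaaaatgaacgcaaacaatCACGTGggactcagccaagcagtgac
In B3galt2 the match is a whole E-box, read on both strands, while the matches in Galnt6, Chst10 and B3gnt3 are not E-boxes. The forkhead letters TGTTTAC were found for 0 of the 10 genes and 3.5% of all, and the STAT6 letters, TTC and GAA with 4 bases between them, for 1 of the 10, Gcnt1, and 6.8% of all. Gcnt1 also has windows without the STAT6 letters. These are matches of letters and not binding sites.

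Among the enzymes that start chains, Galnt6 had the largest difference. Its values were 1.57, 1.8, 2.32 and 2.26 in wt_saline, 3.39, 3.7, 3.83 and 3.27 in wt_OVA, 2.09, 1.84, 2.19 and 2.35 in ko_saline, and 3.38, 3.57, 3.32 and 2.81 in ko_OVA. All 8 OVA arrays lay above all 8 saline arrays. The difference was 1.56 ± 0.2 (SE) in wt (limma, adjusted p = 0.000973), 1.15 ± 0.2 in ko (adjusted p = 0.0159) and 1.36 ± 0.14 over both (adjusted p = 7.83e-05). A second Galnt6 probe gave 1.42 over both.

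Galnt12, another chain starter, was 3.63, 3.53, 3.52 and 3.8 in wt_saline, 4.28, 4.13, 4.32 and 4.19 in wt_OVA, 3.65, 3.79, 3.91 and 3.63 in ko_saline, and 4.15, 4.44, 4.34 and 4 in ko_OVA. The OVA arrays again lay wholly above the saline arrays, though the step was smaller than for Galnt6. It came to 0.55 ± 0.08 over both genotypes (limma, adjusted p = 0.000704), with 0.61 in wt (adjusted p = 0.00809) and 0.49 in ko, which just missed the threshold (adjusted p = 0.0536). Galnt4 was 1.67, 1.5, 1.42 and 1.8 in wt_saline, 2.26, 1.95, 2.54 and 2.1 in wt_OVA, 1.8, 1.62, 1.61 and 1.27 in ko_saline, and 2.01, 2.56, 2.48 and 1.89 in ko_OVA. Its groups did not overlap between agents either, and it rose by 0.64 ± 0.12 over both genotypes (adjusted p = 0.00676), while its second probe gave 0.09.

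The other 3 chain starters that rose had OVA and saline arrays that overlapped. Galnt18 was 2.38, 1.81, 2.37 and 2.29 in wt_saline, 2.36, 2.77, 3.08 and 2.64 in wt_OVA, 1.86, 1.85, 1.7 and 2.02 in ko_saline, and 2.85, 2.2, 2.22 and 2.21 in ko_OVA, and rose by 0.51 ± 0.13 (limma, adjusted p = 0.0303). Galnt7, which prefers peptides that already carry a GalNAc, was -1.35, -1.27, -1.54 and -1.43 in wt_saline, -0.87, -0.84, -1.1 and -0.95 in wt_OVA, -1.65, -1.43, -1.83 and -1.44 in ko_saline, and -1.67, -0.91, -0.49 and -1.15 in ko_OVA. Its wt arrays separated by agent, while ko_OVA 1 lay among the ko_saline arrays, and the difference over both was 0.5 ± 0.13 (adjusted p = 0.04). Galnt3, known for glycosylating the phosphate hormone FGF23, was 2.96, 2.43, 2.89 and 2.65 in wt_saline, 3.19, 3.01, 3.37 and 3.16 in wt_OVA, 2.73, 2.73, 3.07 and 2.35 in ko_saline, and 3.19, 2.99, 3.11 and 2.9 in ko_OVA. It rose by 0.39 ± 0.11 (adjusted p = 0.0424). These 3 calls lay near the threshold, and leaving out 1 array often ended them. Without any 1 of 6 arrays (wt_saline 2, wt_OVA 2, wt_OVA 3, ko_saline 1, ko_saline 2 or ko_saline 3) Galnt18 no longer passed, with adjusted p of up to 0.063. Galnt7 did not pass without any 1 of 13 arrays, all but ko_saline 4, ko_OVA 1 and ko_OVA 3 (adjusted p up to 0.0793), nor Galnt3 without any 1 of 11, all but wt_saline 1, wt_saline 3, wt_OVA 2, ko_saline 3 and ko_OVA 4 (adjusted p up to 0.0929).

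The remaining 7 tested chain starters did not pass. Galnt1 was nearest, at 0.38 ± 0.15 (limma, adjusted p = 0.163), Galnt2 stood at -0.09 and Galnt10 at -0.15, and Galnt16 was lowest at -0.33 ± 0.26 (adjusted p = 0.562). The other 4 members of the role, Galnt9, Galnt17, Galntl5 and Galntl6, were well above background on 0 to 2 of 16 arrays and were not tested.

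Core 1 synthesis showed no difference past the threshold. C1galt1, the core 1 galactosyltransferase, lay near the floor, at -2.91, -3.32, -2.99 and -3.16 in wt_saline, -3.16, -2.62, -2.7 and -2.93 in wt_OVA, -2.84, -3.03, -2.37 and -3.32 in ko_saline, and -2.66, -2.47, -2.92 and -3.32 in ko_OVA, and its difference over both genotypes was 0.15 ± 0.15 (limma, adjusted p = 0.644). C1galt1c1, the chaperone without which that enzyme is degraded, differed by 0.25 ± 0.14 (adjusted p = 0.355). Values near the floor, as those of C1galt1, limit what could be seen.

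Of the branching enzymes, Gcnt1, which makes core 2, rose. It was -1.48, -2.03, -1.19 and -1.7 in wt_saline, -0.62, -0.92, -0.82 and -1.1 in wt_OVA, -1.63, -1.69, -1.36 and -1.97 in ko_saline, and -1.28, -1.11, -0.46 and -0.81 in ko_OVA. The groups did not overlap within either genotype. The difference was 0.73 in wt (limma, adjusted p = 0.0711), 0.75 in ko (adjusted p = 0.13) and 0.74 ± 0.14 over both (adjusted p = 0.00678), and its 3 probes gave 0.27 to 0.74. Gcnt2, which branches poly-N-acetyllactosamine, differed by 0.07 ± 0.15 (adjusted p = 0.833). Gcnt3, the mucin-type core 2 and core 4 enzyme, was well above background on 4 of 16 arrays, 2 of wt_OVA and 2 of ko_OVA, and on 0 saline arrays. All its values lay at the common floor, which ko_OVA 4 set, so its response could not be measured at that floor. With the lower floor it was not among the members that passed. No probe was matched to Gcnt4.

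B3gnt3, which extends core 1 chains, rose. It was -2.44, -1.76, -2.48 and -2.55 in wt_saline, -1.29, -1.62, -1.59 and -1.78 in wt_OVA, -2.62, -2.71, -3.02 and -2.67 in ko_saline, and -1.92, -1.9, -2.08 and -2.12 in ko_OVA. The order of the group means ran from ko_saline through wt_saline and ko_OVA to wt_OVA, and wt_saline 2 stood among the OVA arrays. The OVA difference was 0.74 ± 0.16 in wt (limma, adjusted p = 0.0285), 0.75 ± 0.16 in ko (adjusted p = 0.0521) and 0.74 ± 0.12 over both (adjusted p = 0.00163). The other 5 tested members of this family ranged from -0.04 for B3gnt2 to 0.38 for B3gnt8, and none passed. No probe was matched to B3gnt6, the core 3 enzyme, and B3gnt5 and B3gnt9 were not tested.

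Among the galactosyltransferases, B3galt2, B4galt4 and B4galt1 rose. B3galt2, which makes type 1 chains, was -0.7, -0.56, 0.19 and -0.16 in wt_saline, 0.44, 0.7, 0.94 and 0.33 in wt_OVA, 0.18, -0.56, -0.4 and -0.47 in ko_saline, and 0.57, 0.26, 0.28 and 0.48 in ko_OVA. All OVA arrays lay above all saline arrays, and the difference was 0.81 ± 0.15 over both genotypes (limma, adjusted p = 0.00457) and 0.91 ± 0.21 in wt (adjusted p = 0.0324). B4galt1, the main enzyme that adds galactose to terminal N-acetylglucosamine, was 3.81, 3.94, 3.73 and 3.83 in wt_saline, 4.05, 4.42, 4.08 and 4.15 in wt_OVA, 3.59, 3.54, 3.72 and 3.93 in ko_saline, and 4.05, 4.22, 4.4 and 4.2 in ko_OVA. It rose by 0.43 ± 0.08 over both (adjusted p = 0.00451) and by 0.52 ± 0.11 in ko (adjusted p = 0.0456), again with no overlap between agents, but 1 of its 3 probes gave -0.06. B4galt4, which prefers sulfated N-acetylglucosamine, was 3.86, 3.85, 4.02 and 4.24 in wt_saline, 4.12, 4.71, 4.64 and 4.44 in wt_OVA, 4.05, 3.59, 3.66 and 4.11 in ko_saline, and 4.46, 4.29, 4.53 and 4.53 in ko_OVA, and rose by 0.54 ± 0.11 (adjusted p = 0.00802). Of the other 8 tested galactosyltransferases B4galt2 was nearest to the threshold, at 0.22 ± 0.07 (adjusted p = 0.0619), and B3galt1 was lowest, at -0.38 ± 0.35 (adjusted p = 0.624).

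Sialyltransferases did not move as one. St3gal4, which caps N-acetyllactosamine with alpha2,3-linked sialic acid, was 1.41, 1.45, 0.99 and 1.13 in wt_saline, 2.09, 2.21, 1.59 and 1.63 in wt_OVA, 0.73, 1.5, 1.27 and 1.15 in ko_saline, and 1.76, 2.03, 1.98 and 1.73 in ko_OVA. Every OVA array exceeded every saline array, and it rose by 0.68 ± 0.13 over both (limma, adjusted p = 0.00615). St6galnac2, which sialylates the GalNAc of core 1, was 3.16, 4.17, 3.38 and 3.79 in wt_saline, 3.74, 3.83, 4.48 and 4.49 in wt_OVA, 3.02, 2.91, 2.54 and 3.49 in ko_saline, and 3.57, 4.22, 3.82 and 4.46 in ko_OVA. Its wt groups overlapped and its ko groups did not, and it rose by 0.77 ± 0.19 over both (adjusted p = 0.0302), a call that ended without any 1 of 9 arrays (wt_saline 1 or 3, wt_OVA 3 or 4, ko_saline 1, 2 or 3, ko_OVA 2 or 4), with adjusted p of up to 0.0675.

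The values of St6gal1, which adds alpha2,6-linked sialic acid to N-glycans, ran the other way without passing. They were 0.45, 0.8, 0.76 and 0.72 in wt_saline, 0.36, 0.48, -0.13 and -0.55 in wt_OVA, 0.38, 0.85, 0.74 and 1.23 in ko_saline, and 0.63, -0.23, 0.2 and 0.44 in ko_OVA, with a difference of -0.59 ± 0.17 over both (limma, adjusted p = 0.0533). Its second kept probe, well above background on 8 of 16 arrays, did not fall and gave 0.05 over both. With the median of probes the difference was -0.27 (limma, adjusted p = 0.137). St6gal1 did pass as lower with quantile normalization (adjusted p = 0.0498), with probes required above background on 8 arrays (0.0494), with flagged spots kept (0.0459), in the deposited series table (0.0438), and without wt_OVA 1, wt_OVA 2, ko_saline 1 or ko_OVA 1 (0.0377 to 0.0447). Over its remaining alternatives the adjusted p reached 0.246, and it was 0.0237 without the 3 arrays with the highest or lowest share of probes above background (wt_OVA 1, wt_OVA 2 and ko_OVA 4), an omission chosen after seeing the data. St3gal1, which caps core 1, differed by -0.12 ± 0.12 (adjusted p = 0.638). St6galnac1, which makes sialyl-Tn, was well above background on 2 of 16 arrays and was not tested.

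St3gal6, like St3gal4 an enzyme of N-acetyllactosamine ends, passed in wt only as a separate test. It was -0.46, -0.63, -0.54 and -0.24 in wt_saline, -0.17, 0.22, 0.44 and 0.16 in wt_OVA, 0.19, -0.19, -0.05 and 0.06 in ko_saline, and 0.31, 0.19, -0.05 and -0.18 in ko_OVA. The wt_saline arrays were the low group and the other 3 groups overlapped. The OVA difference was 0.63 ± 0.14 in wt (limma, adjusted p = 0.0332), a call that ended without any 1 of 6 arrays (wt_saline 1, 2 or 3, wt_OVA 2, 3 or 4), with adjusted p of up to 0.11, and 0.06 ± 0.14 in ko (adjusted p = 1). The test of that difference itself, the interaction, gave -0.57 ± 0.2 (unadjusted p = 0.0143, adjusted p = 0.993) and did not pass.

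**Figure D2:**
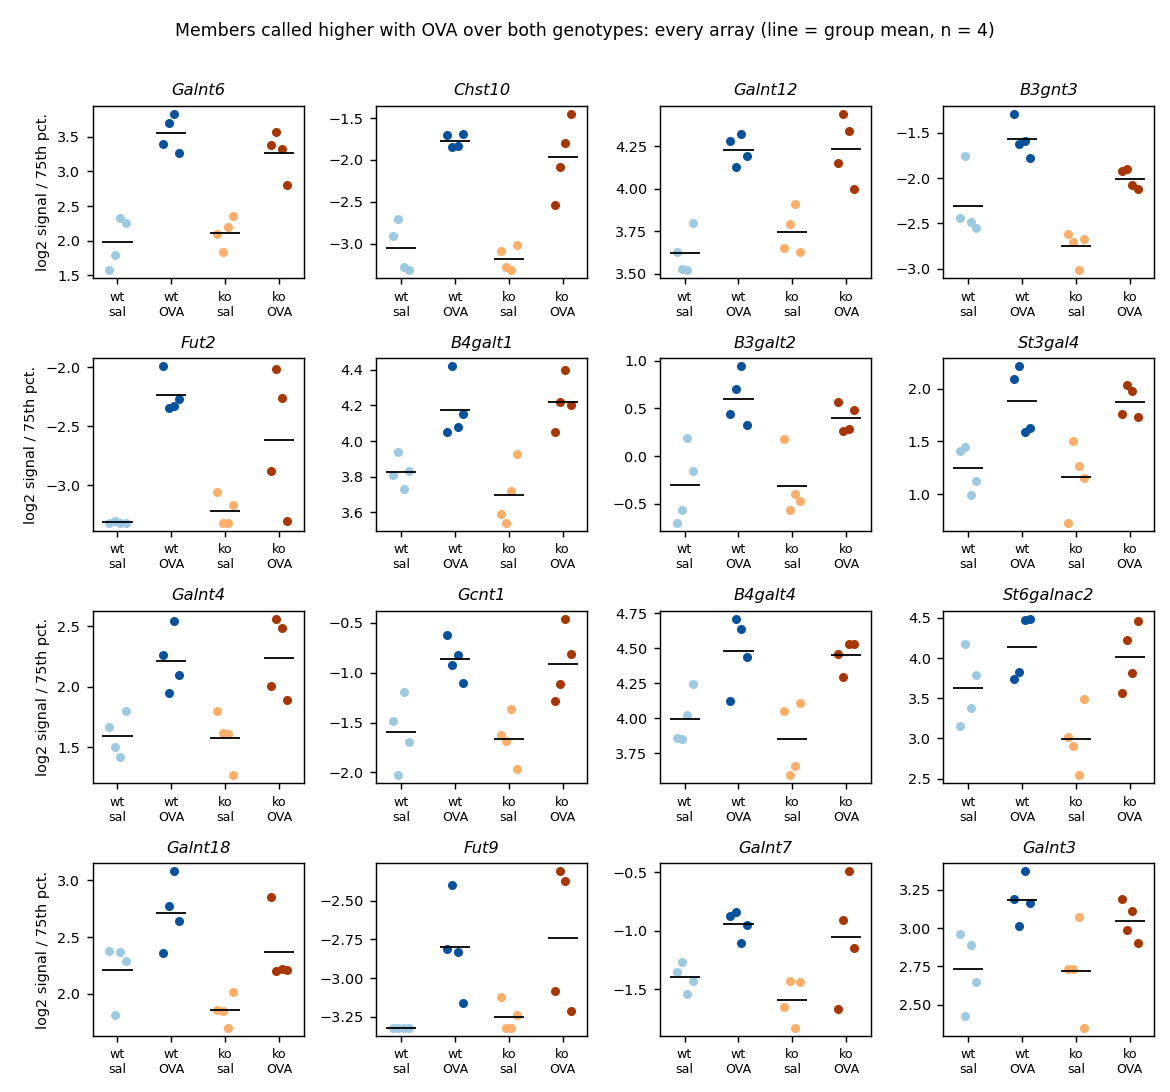
Values on every array of the 16 members that rose with OVA over both genotypes, as log2 of the signal over the 75th percentile of the array, in wt and ko after saline (sal) and OVA. Dots are arrays and lines are means of 4 arrays, and each panel has its own axis. OVA and saline arrays separate fully for 7 genes, among them Galnt6, Chst10 and Galnt12, while ko_OVA 1 lies among the saline arrays for Galnt7.

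Of the fucosyltransferases Fut2 and Fut9 rose, both from values at or near the floor. Fut2, the secretor enzyme that adds alpha1,2-linked fucose, was -3.32, -3.3, -3.32 and -3.32 in wt_saline, -1.99, -2.34, -2.33 and -2.27 in wt_OVA, -3.06, -3.32, -3.32 and -3.17 in ko_saline, and -2.88, -2.01, -2.26 and -3.3 in ko_OVA. The wt_OVA arrays were all high, whereas ko_OVA 4 was as low as the saline arrays. The difference was 0.84 ± 0.15 over both (limma, adjusted p = 0.00386), 1.08 ± 0.21 in wt (adjusted p = 0.0133) and 0.6 ± 0.21 in ko (adjusted p = 0.292), and these sizes depend on the floor, which 3 wt_saline and 2 ko_saline arrays reached. A second Fut2 probe gave 0.21 over both.

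Fut9, which makes Lewis x, was at the floor of -3.32 on all 4 wt_saline arrays, -2.81, -2.4, -2.83 and -3.16 in wt_OVA, -3.12, -3.32, -3.32 and -3.24 in ko_saline, and -3.08, -2.31, -2.37 and -3.21 in ko_OVA. Its difference of 0.51 ± 0.14 (limma, adjusted p = 0.0398) ended as a call without any 1 of 13 arrays, all but wt_OVA 4, ko_OVA 1 and ko_OVA 4, with adjusted p of up to 0.0785, and its second kept probe gave 0.07. The other 5 tested fucosyltransferases lay between -0.19 for Fut4 and 0.34 for Fut8, and none passed. Fut1 was not tested.

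Sulfation held the second largest difference and otherwise little. Chst10, which sulfates glucuronic acid to make the HNK-1 epitope of neural glycans and is not known as a mucin enzyme, was -2.91, -2.7, -3.28 and -3.32 in wt_saline, -1.7, -1.85, -1.84 and -1.69 in wt_OVA, -3.09, -3.28, -3.32 and -3.02 in ko_saline, and -2.54, -2.08, -1.8 and -1.45 in ko_OVA. All OVA arrays exceeded all saline arrays. It rose by 1.28 ± 0.19 in wt (limma, adjusted p = 0.0032), 1.21 ± 0.19 in ko (adjusted p = 0.00884) and 1.24 ± 0.14 over both (adjusted p = 0.000119), and 1 array of each saline group was at the floor. With normexp background correction the differences were 0.58, 0.7 and 0.64 (adjusted p = 0.662, 0.826 and 0.166), and in the deposited series table the difference over both was 0.82. The other 8 tested sulfotransferases lay between -0.08 for Chst12 and 0.11 for Chst11. Chst4, a GlcNAc-6-O-sulfotransferase of mucin-like ligands, was at the floor on 13 of 16 arrays and differed by 0.03 ± 0.09 (adjusted p = 0.884). Chst2, its relative, was well above background on 3 of 16 arrays and was not tested.

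Taken by genotype, 7 members rose with OVA in wt (1.56% of all genes did) and 3 in ko (0.48%), with 0 lower in each, where 1.06% and 0.269% of all genes were lower. The 7 were Galnt6, Galnt12, B3gnt3, B3galt2, St3gal6, Fut2 and Chst10, and the 3 were Galnt6, Chst10 and B4galt1. In wt the count was 4 without wt_saline 1, wt_OVA 2 or wt_OVA 3, and B3galt2 and B3gnt3 each lost the call without any 1 of 6 wt arrays (adjusted p up to 0.109 and 0.0927). In ko the count was 1 without ko_saline 1, ko_saline 2 or ko_OVA 2 and, without wt_OVA 1, 4 higher and 1 lower, the lower being Fut4, and the call of B4galt1 ended without any 1 of 12 arrays, all but wt_OVA 1, wt_OVA 2, ko_saline 4 and ko_OVA 1 (adjusted p up to 0.148). In wt the next members outside the threshold were Gcnt1 and Galnt4 (adjusted p = 0.0711 and 0.0787), and in ko B3gnt3 and Galnt12 (adjusted p = 0.0521 and 0.0536). Counting groups that do not overlap, 14 members were higher and 0 lower with OVA in wt, where 4.87% of all genes were higher and 4.41% lower. By the same count 13 were higher and 1 lower in ko, where 3.09% of all genes were higher and 2.14% lower. The median difference of the tested members was 0.25 in wt and 0.15 in ko, with 0 over all genes in both.

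No difference between the genotypes in the response to OVA passed. Among the 16 risers the difference ran from 0.34 to 1.56 in wt, with a median of 0.61, and from 0.33 to 1.21 in ko, with a median of 0.63, directions that the choice of risers partly fixes. The interaction over the 16 ran from -0.47 to 0.52, with 95% intervals reaching from -1.11 to 1.35, and the smallest adjusted p was 0.993. Over all tested members 0 passed for the interaction (limma; 0% of all genes), and at an unadjusted p under 0.05 2 did, St3gal6 at -0.57 and Fut4 at -0.84 ± 0.33 (unadjusted p = 0.0214, adjusted p = 0.993), where 3.07% of all genes did. Fut4, which serves selectin ligands of leukocytes, was -3.32, -3.32, -2.86 and -3.32 in wt_saline, -2.06, -3.18, -3.32 and -3.32 in wt_OVA, -2.63, -2.82, -2.58 and -2.3 in ko_saline, and -3.19, -3.15, -3.12 and -3.32 in ko_OVA. All ko_saline arrays lay above all ko_OVA arrays, and 6 of the 16 arrays were at the floor.

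**Figure D3:**
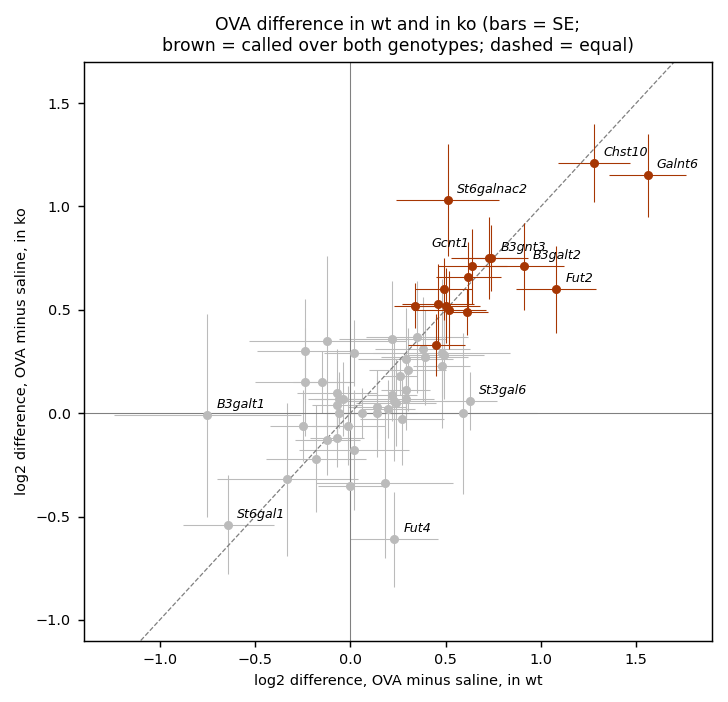
OVA minus saline difference on the log2 scale in wt (horizontal) and in ko (vertical) for the 60 tested members, with bars of 1 SE. Brown points are the 16 members that rose over both genotypes and the dashed line marks equal differences. Galnt6 and Chst10 lie farthest out at 1.56 and 1.15 and at 1.28 and 1.21, whereas St3gal6 lies at 0.63 and 0.06 and Fut4 at 0.23 and -0.61.

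Between ko and wt no member passed the threshold after either agent. Chst1, which the rule leaves out by name, is not covered by this. Its values were -3.32 on every wt_saline array, -3.11 to -2.21 in wt_OVA, -1 to -0.38 in ko_saline and -1.36 to -0.25 in ko_OVA. The ko arrays thus lay above the wt arrays for Chst1 after both agents, without overlap. Of the 60 tested members 0 passed for ko against wt after saline (limma; 0.162% of all genes did), with 2 higher and 4 lower at an unadjusted p under 0.05, where 6.3% of all genes passed in either direction. After OVA 0 passed as well (0.145% of all genes), with 0 higher and 3 lower at an unadjusted p under 0.05, where 5.08% of all genes passed. The members nearest to the threshold were St3gal6 at 0.47 ± 0.14 (adjusted p = 0.493) and B3gnt3 at -0.45 ± 0.16 (adjusted p = 0.659) after saline, and B3gnt3 at -0.43 ± 0.16 and B4galt2 at -0.23 (both adjusted p = 0.884) after OVA.

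B3gnt3 and B3gnt7 were the members with an unadjusted p under 0.05 for ko against wt after both agents, and neither passed the adjusted threshold. For B3gnt3 the ko arrays lay below the wt arrays after saline and after OVA without overlap. B3gnt7, known from keratan sulfate, was -3.16, -3.14, -2.62 and -1.73 in wt_saline, -1.87, -2.31, -2.28 and -2.78 in wt_OVA, -3.32, -3.32, -3.32 and -3.29 in ko_saline, and -3.05, -3.26, -2.88 and -2.57 in ko_OVA. Its ko minus wt difference was -0.65 ± 0.27 after saline (limma, adjusted p = 0.765) and -0.63 ± 0.27 after OVA (adjusted p = 0.884), with 3 ko_saline arrays at the floor. These 2 genes were picked out after their values were seen. Over the 16 risers the ko minus wt difference ran from -0.64 to 0.13 after saline and from -0.43 to 0.06 after OVA, with 95% intervals reaching from -1.23 to 0.56 and from -0.83 to 0.47, which is the span of genotype differences these arrays allow.

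**Figure D4:**
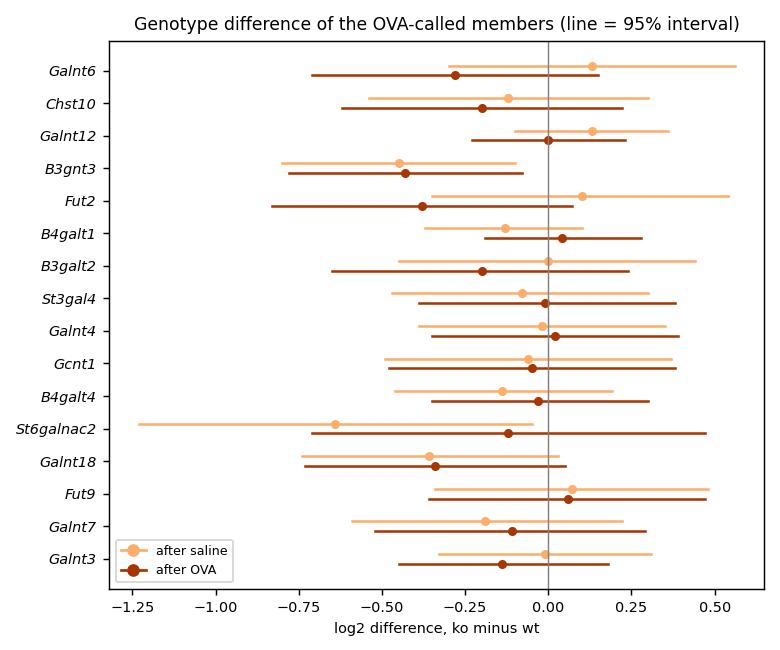
Difference of ko minus wt on the log2 scale after saline (light) and after OVA (dark) for the 16 members that rose with OVA, with 95% intervals from limma. Most intervals span 0, those of B3gnt3 lie below 0 after both agents, and no difference passed the adjusted threshold.

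The genes that feed and carry these glycans gave a mixed picture with OVA over both genotypes. Of all genes 3.72% rose in this comparison and 2.74% fell. Of 6 measured mucin core proteins 3 rose: the gel-forming mucins Muc5ac by 3.4 (limma, adjusted p = 0.000118) and Muc5b by 0.98 (adjusted p = 0.0292), and the membrane mucin Muc4 by 0.64 (adjusted p = 0.00855). Muc5ac was -0.67 to 0.14 in wt_saline, 2.64 to 3.96 in wt_OVA, -0.69 to 0.43 in ko_saline and 1.17 to 4.22 in ko_OVA, where the lowest value was that of ko_OVA 1. Of 23 genes of nucleotide sugar synthesis and Golgi transport 4 rose and 1 fell, with a median of 0.1. The risers were Gfpt1, which controls entry into the hexosamine pathway, by 0.56 (adjusted p = 0.00991), Gmppb, which makes GDP-mannose, by 0.45 (adjusted p = 0.0162), Uap1, which makes UDP-GlcNAc, by 0.33 (adjusted p = 0.034), and Gmds, which starts GDP-fucose synthesis, by 0.46 (adjusted p = 0.0486). Galt of galactose catabolism fell by 0.38 (adjusted p = 0.0184).

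The remaining lists had no gene past the threshold, where 6.47% of all genes passed in either direction. In lists this short a count of 0 is little different from that share. Of 6 genes of sulfate donor supply 0 passed, and Slc35b3, a Golgi transporter of the sulfate donor, was nearest at 0.25 (limma, adjusted p = 0.0568), followed by Papss1, which makes the donor, at 0.24 (adjusted p = 0.153). Of 12 other transferases of terminal and extended glycans 0 passed, with Gal3st1 at 0.23 (adjusted p = 0.118) and St8sia6 at 0.31 (adjusted p = 0.227) nearest. Of 10 N-glycan branching enzymes 0 passed, with Mgat1 at 0.2 (adjusted p = 0.192) and Mgat4a at -0.22 (adjusted p = 0.225) nearest. The list medians were 0.16, 0.05 and 0, and that of the mucin core proteins was 0.6.

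Signal strength and array layout bear on these counts. Of the tested members 43 were well above background on all 16 arrays, and 14 of those rose with OVA over both genotypes, where 4.55% of 12893 such genes did. Of the 10 risers with several kept probes, 9 had all probes on the same side. Array position 4 on the slides held 4 OVA arrays and no saline array. Positions 1 and 2 each held 3 saline arrays and 1 OVA array, and position 3 held 2 of each. With position as a block 11 members passed over both genotypes, 1 in wt and 0 in ko. Of all genes 2.83%, 0.506% and 0.512% passed there in either direction. The 11 hold 10 of the 16 risers and St3gal2, which had not passed before. With normexp background correction 4 passed over both genotypes, namely Galnt6, Gcnt1, B3galt2 and St6galnac2, where 1.17% of all genes were higher. The choice of scaling also matters: with each array divided by its median in place of the 75th percentile, 4 passed over both genotypes, namely Galnt6, Chst10, B3gnt3 and Fut2, and 0 in wt and in ko. All genes split into 691 higher and 509 lower in the first scaling and into 117 and 262 in the second, in which 0.644% of all genes were higher. That scaling moved the median OVA difference of all genes to -0.25 in wt and -0.11 over both, and the members' median stayed 0.25 and 0.16 above it.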

How the data were processed

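The measurement was of Cy3-labelled RNA (0.5 ug per sample) on Agilent one-colour 4x44K arrays, per the labels' protocols, and the 16 arrays lay on 4 slides. Feature Extraction was of version 10.5.1.1 (per the file headers) or 10.1 (in the submitters' processing notes). The deposited scanner files hold background-subtracted intensity values, the median spot intensity and flags per spot. The deposited series table holds log2 values whose scaling is not given in the sources used here, and it served as an alternative only. Of its columns 0 were left unused.

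Control spots and spots flagged as outliers were left out, and spots of a probe were averaged. Each array was scaled to its 75th percentile, lower values were raised to a common floor (-3.32, the highest over arrays of the lowest signal well above background), and log2 was taken. A probe entered if it was well above background on 4 or more of 16 arrays, which 25609 of 41174 were. The brightest probe stood for each gene. This left 18561 genes and transcripts, 12846 with a symbol, after 840 at the floor on every array were dropped. Current symbols came from RefSeq (GRCm38.p6), while the array was designed on mm9.

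A limma model (3.58.1, R 4.3.3) held all 16 arrays with a mean for each group, p-values were adjusted by Benjamini-Hochberg across the whole table with a threshold of 0.05, and the script was tested on simulated data. Every member past the threshold is named, with a few fixed key enzymes, the 2 members nearest outside it in each comparison, and up to 4 called genes of each list (2 by p where none was called). The members and lists were chosen with earlier results of these data known. Alternatives covered background, scaling, floor, filters, probes, blocks and single arrays. For normexp the median spot signal with an offset of 50 was used, as the mean was not analysed here. The number of arrays limits the precision.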

Additional observations from a re-analysis of the deposited data

Results flagged for a closer look

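Over 96 groups of 4 arrays, from 24 named members, the array farthest from the rest was compared with Dixon's critical value at 95%, which chance passes in about 1 in 20 groups. It was passed 9 times. Of these, 5 lie in groups whose other 3 arrays were all at the floor of -3.32: Chst4 at -2.98 on wt_saline 2, at -2.75 on wt_OVA 1 and at -3.3 on ko_OVA 4, Fut2 at -3.3 on wt_saline 2, and Fut4 at -2.86 on wt_saline 3. Fut4 was also high on wt_OVA 1, at -2.06, against -3.32 to -3.18 on the other arrays of its group. B3gnt3 stood at -1.76 on wt_saline 2, against -2.55 to -2.44. Galnt18 was low on wt_saline 2, at 1.81 against 2.29 to 2.38, and high on ko_OVA 1, at 2.85 against 2.2 to 2.22. Of the 9, 4 fell on wt_saline 2.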

How the results depend on the processing

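Over all alternatives, member calls gave 790 comparisons, of which 613 kept direction and call, 177 kept direction without passing and 0 changed sign. The counts for wt, ko and both genotypes (7, 3 and 16) became 1, 0 and 4 with normexp background, and 0, 0 and 4 with median scaling. Of all genes 0.733%, 0.383% and 2.11% passed with normexp, and 0.551%, 0.193% and 2.09% with median scaling. With array position as a block the member counts were 1, 0 and 11 (0.506%, 0.512% and 2.83% of all genes). Fits of just the 8 arrays compared gave 4 in wt and 0 in ko (1.37% and 0.337% of all genes). That setting does not apply to both genotypes or the interaction. Leaving out single arrays gave 4 to 7 in wt, 1 to 5 in ko and 11 to 17 over both, in which the 5 hold 1 lower member (Fut4) and the 17 hold 2 (Fut4 and St6gal1). Of all genes 1.27% to 2.91%, 0.361% to 0.905% and 4.12% to 6.75% passed there. The causes were not tested. Ko against wt and the interaction stayed at 0 under each setting run (limma). Galnt6 over both passed under each of 14 settings and without each of 16 arrays, with values of 1.23 to 1.44. Normexp, which ended 12 of the 16 calls, kept Galnt6, Gcnt1, B3galt2 and St6galnac2. Among the named members that had not passed, signs changed for B4galt2, C1galt1 and Chst4. For B4galt2 this was the ko against wt difference after OVA (0.12, median scaling), and for C1galt1 the OVA difference (-0.07, deposited series table). The OVA difference of Chst4 was -0.04 with median scaling, with quantile normalization, without wt_OVA 1 and without 3 arrays of extreme detection. It was -0.06 with position as a block, with 0.07 as its highest value when single arrays were left out. Over all 44 tested members not called over both genotypes, 9 changed sign with median scaling, 8 with quantile normalization and 10 with position as a block, and of 53 in wt 12 changed with median scaling. Leaving out the 3 arrays of extreme detection (wt_OVA 1, wt_OVA 2 and ko_OVA 4) was chosen after seeing the data. It gave 15 members over both genotypes, 14 higher and 1 lower (St6gal1), where 4.88% of all genes passed. The difference over both genotypes moved by over 1.5 times for B3gnt3 (0.49), Gcnt1 (0.48) and Chst10 (0.64) with normexp, and for Chst10 in the deposited series table (0.82). It did so too for Galnt3 with median scaling (0.25), Galnt7 with position as a block (0.33) and Fut9 with a lower floor (0.93). With the median of probes it did for Fut2 (0.52), Fut9 (0.29) and Galnt4 (0.36).

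Within slides a comparison gives values and no count. The calls in wt and in ko kept their sign there, and of 96 differences of the 16 risers within slides, taken in wt or in ko, 95 were positive and 1 was -0.02 (Galnt7 in ko). These signs are largely fixed by the choice of members, which were picked on the same arrays, so they are no separate support. Of all 60 tested members, 32 to 48 had a positive OVA difference within a slide, in wt or in ko. Deviations of same-numbered arrays of different groups had a median correlation of -0.009 (from -0.405 to 0.412), and those of other numbers -0.015 (from -0.573 to 0.478). Of 16 arrays 7 correlated best with their own number, a count for which no chance value was worked out. With replicate number as a block 6, 2 and 14 members passed in wt, ko and both genotypes, and 0 elsewhere. Of all genes 1.99%, 0.555% and 5.56% passed there in wt, ko and both genotypes.

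The detection filter or the floor limits what the 14 untested members can show. The floor also limits dim tested members, such as Fut2, Fut9, Fut4, Chst4, C1galt1, B3gnt7 and, after saline, Chst10.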
